A study of Mus musculus with 33 samples.

Results

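The 35 genes described here belong to the glutamatergic lineage of the pallium, the dorsal telencephalon that builds the cortex. They were taken from a list of genes of cortical progenitors and glutamatergic neurons, and all 35 were present among the 14664 symbols of the deposited count table. RNA was sequenced from ganglionic eminences, the ventral swellings beside the pallium, of mouse embryos at e13.5. The groups were 4 libraries of Dlx1/2-/- embryos, a constitutive loss of both homeodomain factors, and 4 libraries of wild-type (WT) embryos, all of strain CD1. Per the labels each genotype had 4 embryos, 2 male and 2 female, and which library came from which sex is not labelled. The series of 33 samples also holds ChIP-seq samples, which were not used here because their mm9 coordinates could not be tied to genes.

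Glutamatergic neurons of the cortex arise in a fixed order. Radial progenitors that express Emx and Dmrt factors switch on the proneural factors Neurog1 and Neurog2, pass through intermediate progenitors marked by Eomes, and become neurons that express Tbr1, Neurod2 and Neurod6 and load glutamate into vesicles with the transporters Slc17a6 and Slc17a7. The eminences make GABAergic neurons instead, a fate that depends on Dlx genes. Several members, such as Lmo3, Lmo4, Cux2 and Nfib, are not restricted to the pallium and are also expressed in eminence cells. In bulk tissue, fewer cells of a type and less RNA per cell cannot be told apart, and pallial transcripts made in eminence cells cannot be told apart from those of cortical tissue included in the dissection.

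Libraries held 14.4 M to 48.3 M reads in knockout and 20.2 M to 117 M in WT. Levels are given as CPM, counts scaled to library size with TMM (a correction for library composition). The knockout label held in every library: Dlx2 was at 1.27 ± 0.255 CPM in knockout, against 21.2 ± 5.85 CPM in WT (SD, n = 4), and Dlx1 was at 21.5 to 26.1 CPM in knockout, against 119 to 129 CPM in WT. Of 8 markers of GABAergic eminence neurons, 7 fell, and their summed level was 138 to 163 CPM in knockout and 437 to 482 CPM in WT.

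Only Lhx9 and Ebf3 passed the test among the 35, both higher in knockout. A gene was called at an adjusted p under 0.05 in edgeR's quasi-likelihood test with Benjamini-Hochberg adjustment over all 14510 genes tested, and all 35 members passed the filter on low counts. Across all genes 0.586% were called higher and 0.896% lower, against 2 and 0 of the 35 members. An unadjusted p under 0.05 was reached by 5 members, Lhx9, Ebf3, Rorb, Lmo3 and Pou3f1, and by 7.69% of all genes. The median log2 change of knockout over WT was 0.06 over the members and 0.00 over all genes, and 22 of 35 members had a positive value, against 49.0% of all genes. Values of the 4 knockout and the 4 WT libraries did not overlap for 4 members, Lhx9, Ebf3, Rorb and Lmo4, where 5.98% of all genes had no overlap. The 95% interval of the change lay within 2-fold in both directions for 31 members (88.6%, against 92.0% of all genes) and within 1.5-fold for 19 (54.3%, against 72.1%). The 4 members whose interval reached past 2-fold were Dmrt3, Neurog1, Pou3f1 and Ebf3. The plot of log2 changes by role shows these intervals. The median SE was 0.16 over the members and 0.14 over all genes.

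**Figure D1:**
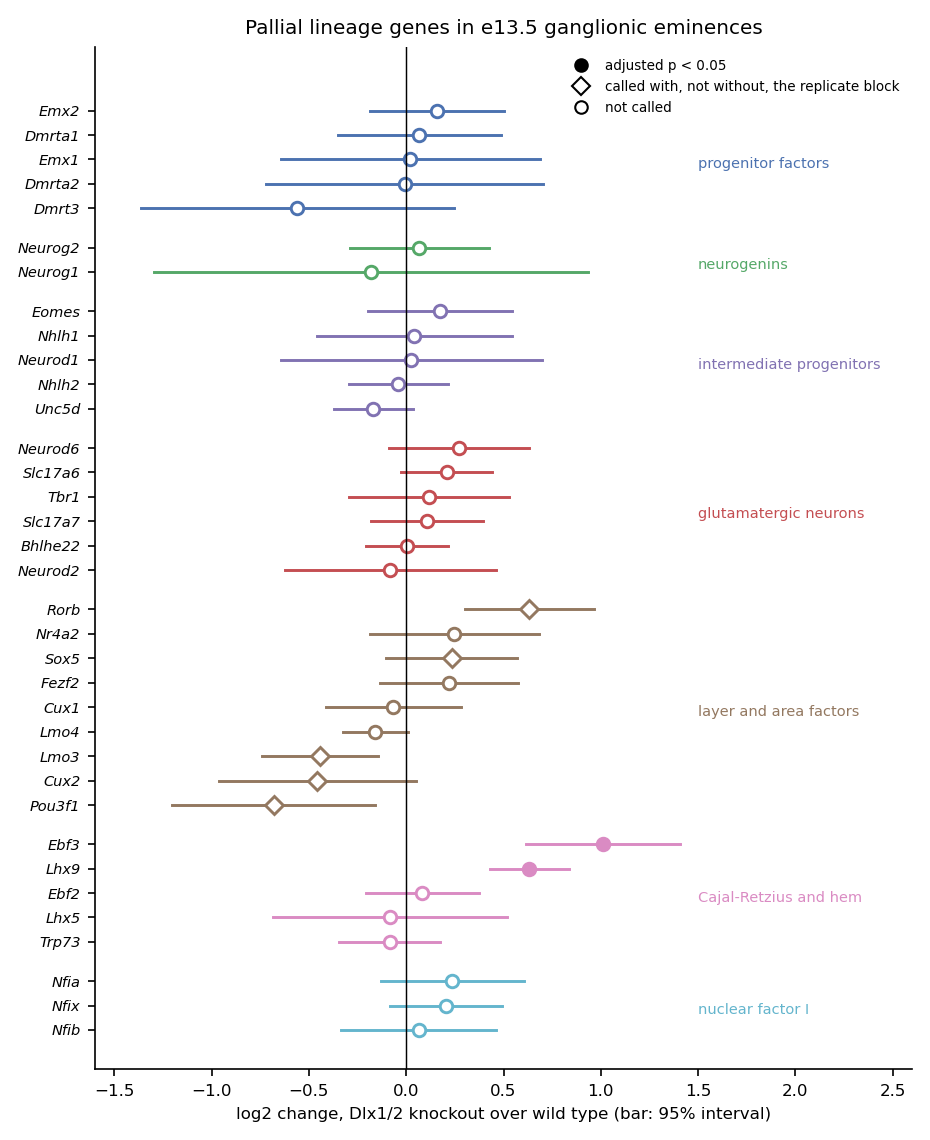
Log2 change of knockout over WT (x axis) for each of the 35 members (y axis, grouped by role), with 95% intervals as bars. Filled circles passed the test without a block. Open diamonds did not, but passed with the replicate number as a block, and open circles passed in neither fit. Other fits are not shown. Lhx9 and Ebf3 are the filled ones, at 0.63 and 1.01.

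None of the 5 transcription factors of pallial progenitors was called. Emx1, a homeodomain factor that marks nearly all cortical progenitors, had 10.7, 10.2, 8.29 and 13.8 CPM in knockout replicates 1 to 4, against 8.68, 6.53, 8.78 and 18.7 CPM in WT replicates 1 to 4. The 2 highest values were those of replicate 4 in each genotype, and the groups overlapped. The log2 change was 0.02 (95% interval −0.64 to 0.69). Its relative Emx2, needed for the caudal and medial cortex, was measured more tightly, at 10.9 ± 2.22 CPM in knockout and 9.74 ± 1.01 CPM in WT (SD, n = 4), with a log2 change of 0.16 (−0.19 to 0.50). The doublesex-related factors Dmrta1 and Dmrta2, which act in cortical patterning, were at 8.10 ± 1.63 and 6.90 ± 1.10 CPM in knockout, and at 7.74 ± 1.63 and 6.97 ± 3.86 CPM in WT. Dmrta2 ranged from 3.91 to 12.5 CPM within WT, a wider range than its 5.94 to 8.47 CPM in knockout. The third member of that family, Dmrt3, was low in all libraries, at 0.332 to 0.936 CPM in knockout and 0.595 to 1.33 CPM in WT, and its log2 change was −0.56 (interval −1.36 to 0.24). Its smallest library count was 14 reads.

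The neurogenins, proneural bHLH factors that start glutamatergic differentiation, were likewise not called. Neurog2 had 46.1, 52.2, 50.5 and 66.0 CPM in knockout, against 46.3, 43.8, 47.7 and 67.3 CPM in WT. Replicate 4 was again the highest in both genotypes, and the log2 change was 0.07 (−0.29 to 0.42). Neurog1 had between 9 and 21 reads per library in knockout and between 4 and 34 in WT. Its interval of −1.30 to 0.93 includes a 2-fold lower level. The SE of 0.50 was 0.35 with the replicate number as a block and 0.32 with a term for replicates 1 and 2 against 3 and 4.

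Genes of intermediate progenitors and newborn neurons gave 0 calls of 5. Eomes, the T-box factor that defines intermediate progenitors, was at 31.3 ± 6.37 CPM in knockout and 27.7 ± 5.02 CPM in WT, with a log2 change of 0.17 (SE 0.17). Neurod1, a bHLH factor downstream of the neurogenins, had 15.8, 13.0, 19.3 and 25.1 CPM in knockout, against 14.7, 9.50, 20.3 and 27.3 CPM in WT. The order of the replicates was the same in both genotypes, and the knockout range lay within the WT range. Nhlh1 and Nhlh2, bHLH factors of newborn neurons, changed by 0.04 and −0.04 on the log2 scale, the second with an interval of only −0.29 to 0.21. Unc5d, a netrin receptor of migrating cortical neurons, had 33.3, 36.1, 41.5 and 37.0 CPM in knockout, against 40.1, 42.4, 41.2 and 42.7 CPM in WT. Knockout replicate 3 lay within the WT range and the other 3 below it, and the log2 change of −0.17 (SE 0.09) was not called (edgeR adjusted p = 0.856).

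Genes of postmitotic glutamatergic neurons were present in all libraries of both genotypes and none of the 6 was called. Tbr1, a T-box factor of early-born cortical neurons, had 24.5, 26.6, 17.9 and 18.4 CPM in knockout, against 26.1, 20.8, 15.1 and 18.7 CPM in WT. Replicates 1 and 2 exceeded replicates 3 and 4 in each genotype, and the difference between genotypes was smaller than that between replicates, at a log2 change of 0.12 (−0.29 to 0.53). Neurod6, a bHLH factor nearly specific to glutamatergic neurons of the telencephalon, had 287, 415, 263 and 357 CPM in knockout, against 334, 275, 232 and 256 CPM in WT. Its change of 0.27 (−0.09 to 0.63) was the largest of this group and was not called (edgeR adjusted p = 0.975). Neurod2, which acts with Neurod6 in neuronal differentiation, went the other way in value, at 78.1 ± 15.1 CPM in knockout and 82.6 ± 31.6 CPM in WT, with 126 CPM in WT replicate 4. Bhlhe22, a bHLH factor of cortical area identity, was the most even member of the group, at 83.7 ± 7.73 CPM in knockout and 83.4 ± 5.72 CPM in WT, with an interval of −0.20 to 0.21.

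The vesicular glutamate transporters give the readout of transmitter type. Slc17a6, which predominates in embryonic glutamatergic neurons, had 117, 105, 86.7 and 97.5 CPM in knockout, against 96.9, 88.0, 83.0 and 83.8 CPM in WT. The knockout value was the higher one at each replicate number, while the ranges overlapped, and the log2 change of 0.21 (−0.03 to 0.44) was not called (edgeR adjusted p = 0.789). Slc17a7, the transporter of mature cortical neurons, was at 11.9 ± 1.53 CPM in knockout and 11.0 ± 1.26 CPM in WT, a log2 change of 0.11 (−0.18 to 0.40). In the same libraries Slc32a1, the vesicular transporter for GABA, fell to 2.45 to 5.54 CPM in knockout, against 24.7 to 42.8 CPM in WT. Summed over the 6 neuronal genes, the level was 627 ± 74.7 CPM in knockout and 559 ± 52.8 CPM in WT, with ranges of 534 to 708 and 505 to 622 CPM that overlap.

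**Figure D2:**
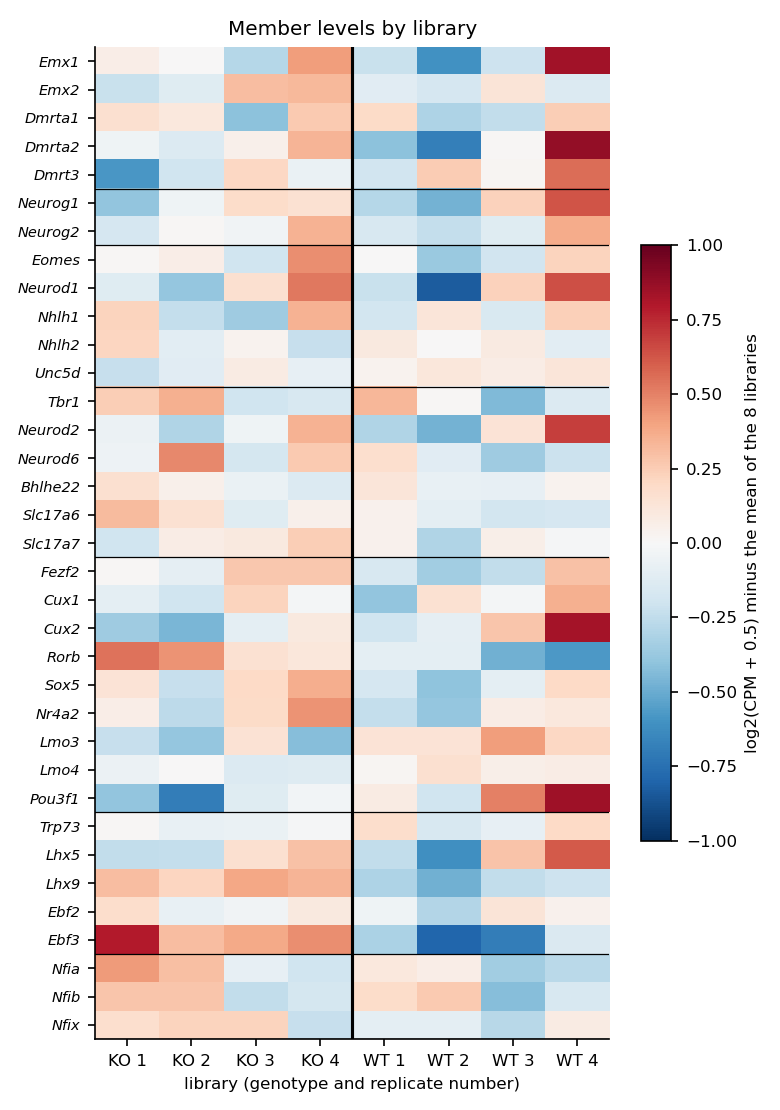
Level of each member (rows, grouped by role from progenitor factors at the top to the nuclear factor I genes at the bottom) in each library (columns, knockout left and WT right), as log2(CPM + 0.5) minus the mean of the 8 libraries. Lhx9, Ebf3 and Rorb are red in all knockout columns, while Emx1, Dmrta2, Cux2 and Pou3f1 owe their strongest red to WT replicate 4, at 18.7, 12.5, 69.1 and 26.5 CPM.

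Factors of cortical layer and area identity were the most mixed group, with log2 changes from −0.68 to 0.63 among 9 genes and 0 calls. Rorb, an orphan nuclear receptor of layer 4 neurons, had 52.4, 49.2, 40.0 and 38.8 CPM in knockout, against 33.4, 33.4, 25.5 and 23.9 CPM in WT. Every knockout library lay above every WT library, and in both genotypes replicates 1 and 2 lay above replicates 3 and 4. The log2 change of 0.63 (SE 0.15) missed the threshold (edgeR adjusted p = 0.0829), with values from 0.0984 to 0.258 when 1 library was left out. It passed with the replicate number as a block (adjusted p = 0.00045), within replicates 1 and 2 alone (log2 0.60, adjusted p = 0.0087), within replicates 3 and 4 alone (log2 0.67, adjusted p = 0.0177) and with DESeq2 (adjusted p = 0.0043). DESeq2 called 1.57% of all genes higher and 1.64% lower, and among the members Lhx9, Ebf3 and Rorb higher and none lower. In the authors' deposited table Rorb also passes, with an adjusted p of 0.0147.

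The replicate block, which compares libraries of the same number, called 4 members higher (Lhx9, Ebf3, Rorb and Sox5) and 3 lower (Pou3f1, Lmo3 and Cux2). Neither the labels nor the correlations between libraries establish a pairing by number. Over all genes the block called 2.22% higher and 2.16% lower. Of the 7 members, 5 are layer and area factors. With a term for replicates 1 and 2 against 3 and 4 in place of the block, 3 members were higher (Lhx9, Ebf3 and Rorb) and 2 lower (Pou3f1 and Lmo3), against 2.29% and 2.32% of all genes. Pou3f1, a POU factor of upper layer and callosal neurons, had 10.9, 8.80, 13.2 and 14.2 CPM in knockout, against 15.4, 12.5, 20.8 and 26.5 CPM in WT. At each replicate number the knockout value was the lower one, while the highest knockout and the lowest WT values overlapped. Its log2 change was −0.68 (SE 0.23, edgeR adjusted p = 0.335), and with the block −0.64 (SE 0.09, edgeR adjusted p = 0.0029). Cux2, a homeodomain factor of upper layer neurons and their progenitors, had 30.0, 27.8, 35.9 and 41.3 CPM in knockout, against 33.4, 36.1, 46.9 and 69.1 CPM in WT. Leaving out WT replicate 4, the highest library, brought its log2 change of −0.46 down to −0.20, and the block gave −0.41 (edgeR adjusted p = 0.0393).

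Lmo3 and Lmo4 encode LIM-only proteins, which bridge transcription factor complexes. Lmo3 had 89.6, 80.3, 116 and 78.3 CPM in knockout, against 116, 116, 141 and 122 CPM in WT. Knockout replicate 3 reached the level of WT replicates 1 and 2 and the other 3 knockout libraries lay below all WT libraries. The log2 change was −0.44 (SE 0.13, edgeR adjusted p = 0.22), with an adjusted p of 0.0307 without knockout replicate 3 and 0.003 with the block. Lmo4 was the most even of all members between libraries, at 130.4, 136, 124 and 124 CPM in knockout, against 138, 152, 141 and 143 CPM in WT. Its groups did not overlap, but the change of −0.16 (SE 0.07) was small and not called (edgeR adjusted p = 0.703).

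The remaining layer factors differed by at most 0.25 on the log2 scale. Sox5, an SRY-box factor of deep layer and subplate neurons, was at 125 ± 20.7 CPM in knockout and 106 ± 18.7 CPM in WT, higher in knockout at each replicate number, and passed only with the block (log2 0.23, SE 0.05, edgeR adjusted p = 0.0293). Fezf2, the factor that directs subcerebral projection neurons, was at 13.8 ± 1.78 CPM in knockout and 11.8 ± 2.57 CPM in WT. Nr4a2, an orphan nuclear receptor of subplate and claustral neurons, ranged from 3.76 to 6.47 CPM in knockout and from 3.41 to 5.00 CPM in WT. Cux1, the close relative of Cux2, differed by −0.07 (−0.41 to 0.28) on the log2 scale.

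**Figure D3:**
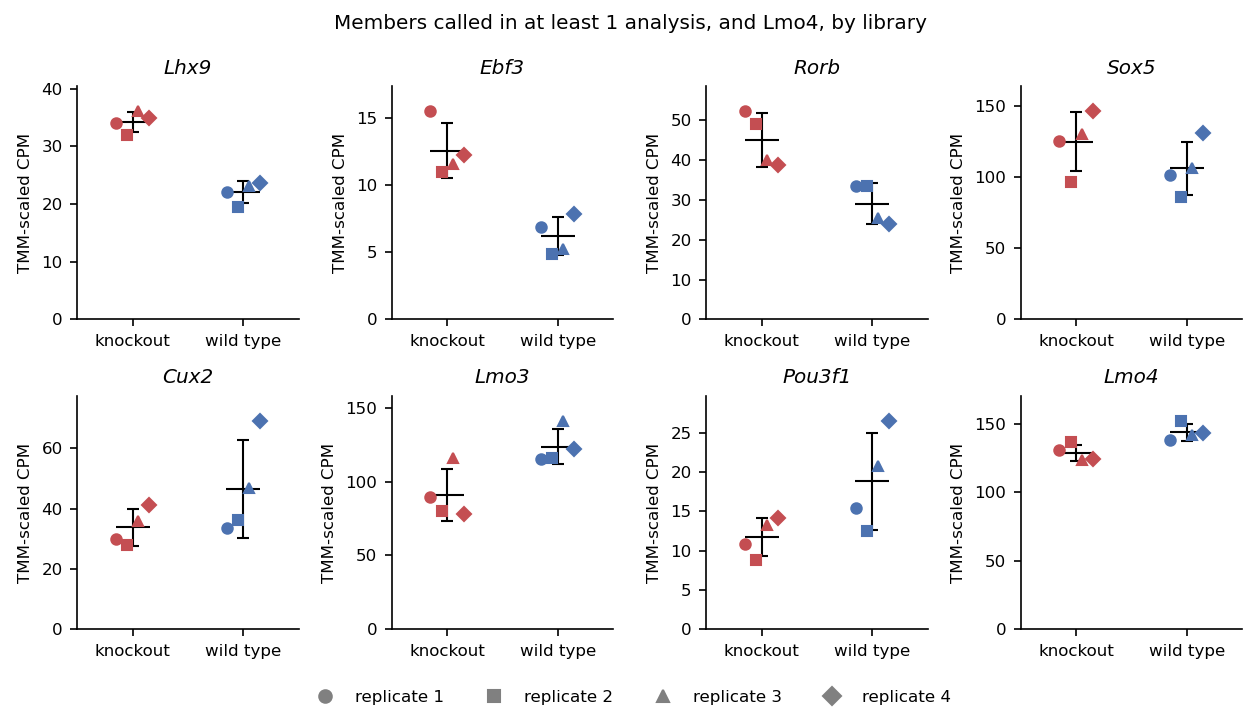
CPM (y axis, from 0) of 8 members in each library, knockout left and WT right, with the marker giving the replicate number and the bars the mean and SD of 4 libraries. Lhx9, Ebf3, Rorb and Lmo4 have no overlap between genotypes, whereas Cux2 and Pou3f1 reach 69.1 and 26.5 CPM in WT replicate 4.

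Among the 5 factors of Cajal-Retzius cells, the hem and the thalamic eminence, Lhx9 and Ebf3 rose and the other 3 were not called. Cajal-Retzius cells are the early Reln-secreting neurons at the cortical surface. Lhx9, a LIM-homeodomain factor of the pallium and diencephalon, had 34.1, 31.9, 36.1 and 34.9 CPM in knockout, against 22.0, 19.5, 23.0 and 23.7 CPM in WT. The knockout libraries were tightly grouped and all lay above the WT libraries. The level rose 1.55-fold, a log2 change of 0.63 (SE 0.09, edgeR adjusted p = 0.006), and the call held without any 1 library (adjusted p from 0.0119 to 0.0295). Within replicates 1 and 2 alone the log2 change was 0.66 and within replicates 3 and 4 alone 0.60.

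Ebf3, an early B-cell factor with a role in neuronal differentiation and migration, had 15.6, 11.0, 11.6 and 12.3 CPM in knockout, against 6.92, 4.85, 5.22 and 7.88 CPM in WT. No knockout value came near the WT range, and knockout replicate 1 was the highest. Its level rose 2.02-fold, a log2 change of 1.01 (SE 0.18, edgeR adjusted p = 0.0199). The call ended without knockout replicate 1 (log2 0.89, adjusted p = 0.0652), knockout replicate 4 (1.02, 0.0544), WT replicate 2 (0.92, 0.0558) or WT replicate 3 (0.94, 0.074). Replicates 1 and 2 alone gave 1.13 (adjusted p = 0.0202) and replicates 3 and 4 alone 0.87 (adjusted p = 0.0996). In the authors' deposited table Lhx9 and Ebf3 have adjusted p-values of 0.0016 and 4.5e-05, and with Rorb they are the 3 members that pass there as higher, with none lower, against 1% and 1.23% of the whole table.

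Both genes are also expressed outside the pallium, so markers of neighbouring territories are set beside them. Of 14 diencephalic and hypothalamic markers, 6 were in the table and tested, and their summed level was 33.2 ± 1.79 CPM in knockout and 24.8 ± 3.79 CPM in WT, without overlap. Otp, a hypothalamic homeodomain factor, rose to 2.53 ± 0.426 CPM in knockout, against 0.203 ± 0.0725 CPM in WT (log2 3.57, edgeR adjusted p = 5.2e-05), and the other 5 were not called. Gbx2, a homeodomain factor of the thalamus, had 4.24 to 7.54 CPM in knockout and 2.20 to 3.42 CPM in WT (log2 0.98, SE 0.23, edgeR adjusted p = 0.0748), without overlap, and it passes in the authors' deposited table with an adjusted p of 0.005. Irx2, low in all libraries, had 0.544 to 0.885 CPM in knockout and 0.0834 to 0.376 CPM in WT, without overlap (log2 1.45, edgeR adjusted p = 0.161). Irx2 also passes in the authors' deposited table, with an adjusted p of 0.0219. Sim1 changed by 0.17 (−0.28 to 0.62), Tcf7l2 by 0.19 (−0.14 to 0.53) and Barhl2 by 0.19 (−0.24 to 0.62), each with overlap between genotypes. All 6 tested markers had positive log2 changes, as did 49.0% of all genes. Their part in the values of Lhx9 and Ebf3 was not tested.

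The other Cajal-Retzius and hem members were even between genotypes. Trp73, the p53 relative of Cajal-Retzius cells, had 8.91 ± 0.268 CPM in knockout and 9.43 ± 1.24 CPM in WT, a log2 change of −0.08 (−0.35 to 0.18). Ebf2 had 6.95 ± 0.604 CPM in knockout and 6.56 ± 0.857 CPM in WT, with an interval of −0.21 to 0.37 against 0.61 to 1.41 for Ebf3. Lhx5, a LIM-homeodomain factor of Cajal-Retzius cell sources, had 5.53, 5.54, 7.49 and 8.24 CPM in knockout, against 5.51, 4.16, 8.19 and 10.4 CPM in WT. It again separated replicates 1 and 2 from 3 and 4 rather than the genotypes. Reln itself was at 202 ± 47.5 CPM in knockout and 202 ± 29.5 CPM in WT, although Reln is not restricted to Cajal-Retzius cells.

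The stretches of 300 bases at the transcription starts of both genes that rose are shown because Dlx1 and Dlx2 are homeodomain factors. Sequence outside these stretches was not searched, and binding was not examined. The stretches run from 250 bases before to 50 bases after the start, in RefSeq sequence of build GRCm38.p6. Lhx9 lies at chr1:138842395-138842694 and Ebf3 at chr7:137314396-137314695, both on the minus strand, and each is written 5′ to 3′ along the gene.
Lhx9: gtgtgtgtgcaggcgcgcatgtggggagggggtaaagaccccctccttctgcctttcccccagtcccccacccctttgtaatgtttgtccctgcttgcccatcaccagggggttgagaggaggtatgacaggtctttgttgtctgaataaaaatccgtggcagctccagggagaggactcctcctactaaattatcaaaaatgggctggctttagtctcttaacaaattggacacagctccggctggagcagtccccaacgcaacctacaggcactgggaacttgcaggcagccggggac
Ebf3: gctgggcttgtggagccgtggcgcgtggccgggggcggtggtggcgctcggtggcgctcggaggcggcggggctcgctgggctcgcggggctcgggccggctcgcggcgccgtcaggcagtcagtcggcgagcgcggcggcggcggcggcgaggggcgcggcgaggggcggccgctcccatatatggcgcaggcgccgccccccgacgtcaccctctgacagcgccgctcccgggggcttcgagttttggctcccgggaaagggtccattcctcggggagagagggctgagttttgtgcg
Neither window holds TAATTA, the palindromic core bound by many homeodomain proteins, or CAGATG, an E-box of proneural bHLH factors searched on both strands, so no letters are in capitals.

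Of the 35 members, 29 matched the promoter table, with 38 windows, since some genes have several starts. Bhlhe22, Ebf2, Lhx5, Nfib, Pou3f1 and Unc5d did not match. TAATTA stood in 5 of the 38 windows, those of 5 genes, against 5.29% of all 32851 windows of that length, and CAGATG stood in 7, against 17.2%. The stretches around the homeodomain core are given below in GRCm38.p6, 5′ to 3′ along the gene, with up to 15 bases on each side and the core in capitals. They lie at chr2:61804405-61804455 (plus strand) for Tbr1, chr7:51624541-51624576 (plus) for Slc17a6, chr13:56252359-56252394 (minus) for Neurog1, chr8:84780102-84780137 (minus) for Nfix and chr19:59458711-59458739 (plus) for Emx2.
Tbr1: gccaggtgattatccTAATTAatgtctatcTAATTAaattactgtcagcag
Slc17a6: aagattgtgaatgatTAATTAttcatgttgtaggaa
Neurog1: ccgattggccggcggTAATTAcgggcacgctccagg
Nfix: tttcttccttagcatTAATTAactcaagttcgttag
Emx2: atgtgatccccgcacTAATTAggctcatg
The 5 genes that hold the core had log2 changes of 0.12 (Tbr1), 0.21 (Slc17a6), −0.18 (Neurog1), 0.20 (Nfix) and 0.16 (Emx2), none of them called. A match in these letters is a description of the window and says nothing of binding.

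Among the nuclear factor I genes, which act in radial glia and at the onset of gliogenesis, Nfia and Nfib differed more between replicates than between genotypes. Nfib had 301, 301, 209 and 219 CPM in knockout, against 281, 298, 184 and 221 CPM in WT. Nfia had 48.9, 44.9, 34.3 and 31.6 CPM in knockout, against 39.1, 38.1, 28.5 and 30.0 CPM in WT. For both genes replicates 1 and 2 of either genotype lay above replicates 3 and 4 of either genotype. Nfix lacked this split, with 14.0 to 19.5 CPM in knockout and 13.6 to 17.6 CPM in WT. Log2 changes between genotypes were 0.24 for Nfia, 0.06 for Nfib and 0.20 for Nfix, none called.

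That split ran through other members and through the table as a whole. Tbr1, Nfia and Nfib were higher in all libraries numbered 1 and 2 than in all numbered 3 and 4, and Dmrta2, Neurog1, Neurod1, Neurod2, Nr4a2 and Lhx5 were lower. These 9 are 25.7% of the members, against 39.0% of all genes tested. The difference between the sets had the same sign in knockout and WT for 30 of 35 members (85.7%, against 80.8% of all genes). It was 0.49 in knockout and 0.47 in WT for Tbr1 on the log2 scale, and −0.62 in knockout and −0.98 in WT for Neurod1. The labels do not say how the sets differ.

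**Figure D4:**
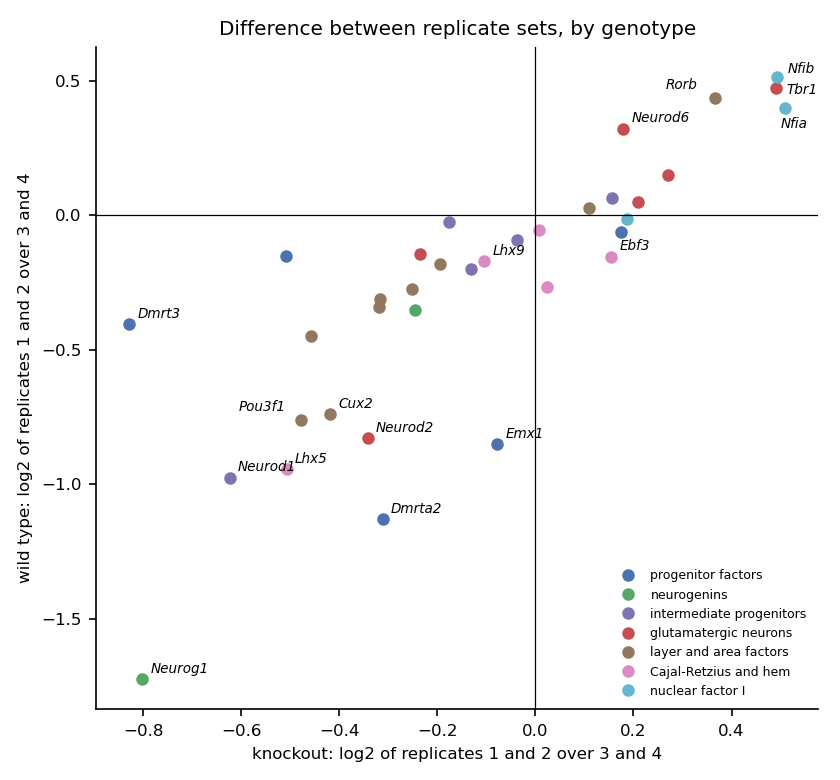
Log2 ratio of the mean CPM of replicates 1 and 2 to that of replicates 3 and 4, in knockout (x axis) and in WT (y axis), for each of the 35 members, coloured by role. Most points fall at the lower left or the upper right, with Tbr1, Nfia and Nfib at the top right and Neurog1 at the bottom left, at −0.80 in knockout and −1.72 in WT.

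WT replicate 4 was the highest WT library for 22 of the 35 members, and knockout replicate 4 the highest knockout library for 15. Over all genes these libraries were the highest of their genotype for 31.6% and 21.8%. WT replicate 2 was the lowest WT library for 19 members, against 30.4% of all genes. The within-genotype SD on the log2 scale had a median of 0.26 over the members and 0.21 over all genes, and ran from 0.06 for Lmo4 to 0.77 for Neurog1. Markers of other tissues that a dissection could include gave no called gene among 9 blood and vessel, 6 microglia and 7 mesenchyme genes tested. Of the choroid plexus list, 2 of 5 genes were tested, and they differed in sign. Otx2 rose (23.2 ± 3.77 CPM in knockout, 10.1 ± 0.707 CPM in WT), while Clic6 was at 0.273 ± 0.27 CPM in knockout and 0.515 ± 0.192 CPM in WT (log2 −1.09, edgeR adjusted p = 0.883). Their part in the spread among libraries was not tested.

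Of the 18 genes tested from a list of remaining paralogs of the members, 3 fell, Ebf1, Lhx6 and Lhx8, where 0.896% of all genes fell. Ebf1, a paralog of Ebf3 that acts in striatal neurons, had 25.4, 20.8, 25.9 and 29.7 CPM in knockout, against 60.6, 64.5, 62.3 and 72.3 CPM in WT. All knockout libraries were below all WT libraries, and the log2 change was −1.35 (SE 0.12, edgeR adjusted p = 0.00025), while that of Ebf3 was 1.01 and that of Ebf4 0.19. The LIM-homeodomain genes Lhx6 and Lhx8, which specify interneurons and cholinergic neurons of the medial eminence, fell, with log2 changes of −0.85 and −1.31, while Lhx9 rose. Lhx2, a selector of cortical identity that eminence progenitors also express, had 78.3 ± 11.2 CPM in knockout and 50.6 ± 12.5 CPM in WT, without overlap and without a call (log2 0.63, edgeR adjusted p = 0.148). In the authors' deposited table Lhx2 passes, with an adjusted p of 0.0215. Pou3f2, beside Pou3f1, was at 179 ± 19.2 CPM in knockout and 141 ± 17.8 CPM in WT (log2 0.35, edgeR adjusted p = 0.301). These differences between paralogs were not tested. Where paralogs share near-identical stretches, short reads may be split between them by a counting rule that the sources used here do not state.

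**Figure D5:**
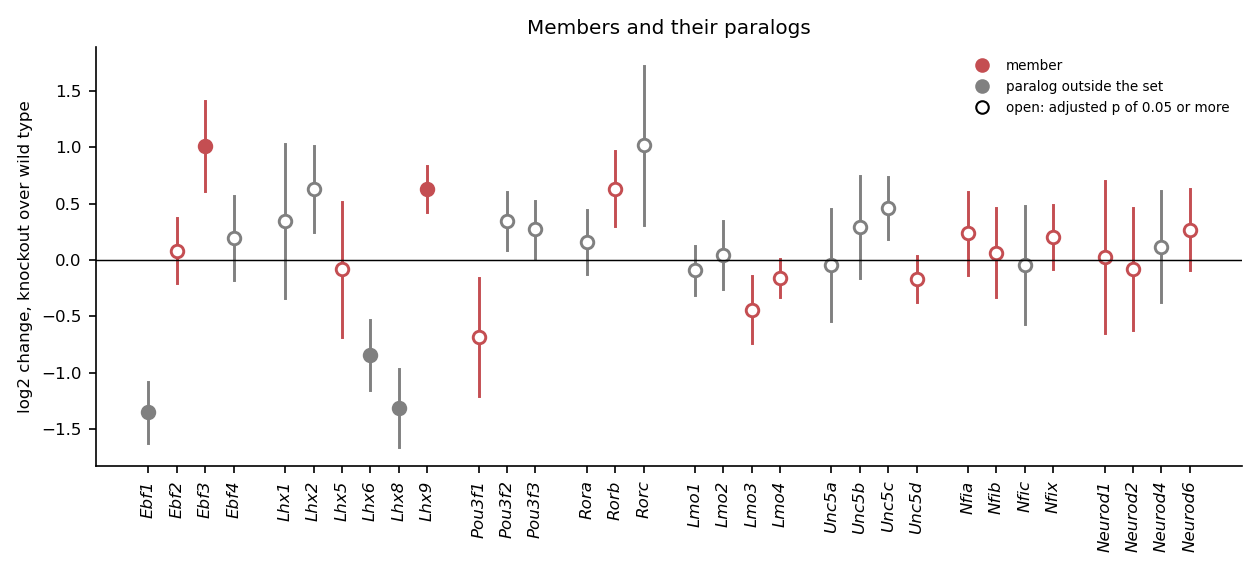
Log2 change of knockout over WT (y axis) with 95% intervals for 8 gene families (x axis), members in red and paralogs outside the set in grey, filled where the adjusted p was under 0.05. Ebf3 and Lhx9 lie above 0 at 1.01 and 0.63, and their paralogs Ebf1, Lhx6 and Lhx8 below it at −1.35, −0.85 and −1.31.

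A further 64 genes of the pallial lineage and of the members' families were read from lists, of which 58 were tested. Of these, 1 rose and 6 fell, against 0.586% and 0.896% of all genes. The median log2 change of the 58 was 0.02. Btg2, an antiproliferative gene switched on in progenitors that are about to make neurons, rose 1.86-fold, to 245, 249, 272 and 246 CPM in knockout, against 147, 138, 139.6 and 119 CPM in WT (edgeR adjusted p = 0.00053). It is expressed in neurogenic progenitors of the eminences as well as the pallium, and was 1 of 7 progenitor genes, all of which had positive values. Insm1, of the same list, had 125 ± 14.3 CPM in knockout and 77.6 ± 21.7 CPM in WT, without overlap (log2 0.69, edgeR adjusted p = 0.135). Insm1 was not called, but passes in the authors' deposited table, with an adjusted p of 0.0184. Pax6, the progenitor gene most closely tied to pallial fate, had 48.3 ± 5.28 CPM in knockout and 46.4 ± 3.48 CPM in WT (log2 0.06, interval −0.18 to 0.29).

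Of 17 further genes of cortical projection neurons, Bcl11a and Mef2c fell and 15 were not called, where 0.896% of all genes fell. Bcl11a, a zinc finger factor, had 62.6 ± 7.44 CPM in knockout and 91.1 ± 8.75 CPM in WT (log2 −0.54, edgeR adjusted p = 0.0461), and Mef2c, a MADS-box factor, had 113 ± 12.3 CPM in knockout and 159 ± 6.29 CPM in WT (log2 −0.49, edgeR adjusted p = 0.0273). Both are also expressed by GABAergic neurons. Of 12 further Cajal-Retzius and hem genes tested, Wnt5a, a Wnt ligand, fell to 6.60 ± 1.01 CPM in knockout, against 13.4 ± 1.51 CPM in WT (log2 −1.03, edgeR adjusted p = 0.004). The other 11 were not called. Of the 12, 8 had negative and 4 positive values, with a median log2 change of −0.33. Rspo2, low in all libraries, had 0.601 ± 0.255 CPM in knockout and 2.11 ± 0.979 CPM in WT, without overlap (log2 −1.74, edgeR adjusted p = 0.103). Rspo2 passes in the authors' deposited table, with an adjusted p of 0.0005. The 4 tested genes of the boundary between pallium and subpallium gave 0 calls, with log2 changes from −0.17 to 0.15. The 3 remaining genes that fell, Ebf1, Lhx6 and Lhx8, came from the list of paralogs.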

How the data were processed

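RNA-seq of e13.5 ganglionic eminences was analysed from a table of raw read counts per gene symbol, which the authors deposited without normalization. Per the submitters' processing notes, reads were handled with bcl2fastq and STAR 2.4.2a with mm9 as the genome build. How reads were assigned to genes, by which annotation and with what strand setting, is not stated in the sources used here. The labels name both polyA RNA and a kit for ribosome-depleted total RNA. The same table holds log2 fold changes, a likelihood ratio score and p-values from a comparison by the authors, as the file headers name them.

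Counts were tested with edgeR 4.0.16 in R 4.3.3 (quasi-likelihood test, TMM, Benjamini-Hochberg adjustment at 0.05) after filterByExpr with min.count 10, on all genes, 4 knockout against 4 WT libraries. SE is the log2 change over the root of F, and intervals are 95%. P-values set the difference between genotypes against the spread between these libraries. Tested on simulated counts for this comparison, with 14425 genes tested, the procedure recovered 23.9% of genes changed 1.5-fold, 89.6% changed 2-fold and 97.0% changed 4-fold, with 7 false calls. To compare libraries, the log2 CPM of each gene was first centred on the mean of its genotype. Such centring by itself gives each library correlations of both signs. Correlations of these centred values over genes between the genotypes were 0.15 to 0.48 for the 4 pairs of the same replicate number. For the 12 unlike pairs they were −0.51 to 0.60. They were positive within replicates 1 and 2 and within 3 and 4, and negative across these sets. The highest was that of knockout replicate 2 with WT replicate 1 (0.60). Knockout replicate 1 followed WT replicate 2 (0.39) more closely than WT replicate 1 (0.15). These values do not establish a pairing by number, and the labels give only the number. Alternatives were DESeq2 1.42.0, other scalings, no filter, the replicate block, replicate pairs alone and leaving out each library, and a term for replicates 1 and 2 against 3 and 4 was added after seeing the data. Levels were given for members called in any analysis, the extremes of each role and the defining neuronal markers. They stand as values per library, as ranges or as mean and SD. The members, lists and rules were chosen with earlier results of these data known.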

Additional observations from a re-analysis of the deposited data

Results flagged for a closer look

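Of 70 sets of 4 libraries (35 members in 2 genotypes), 3 held a value far from the other 3, where chance alone marks about 1 set in 20. Neurog2 was at 67.3 CPM in WT replicate 4, against 43.8 to 47.7 CPM in the other WT libraries. Emx2 was at 11.2 CPM in WT replicate 3, against 9.05 to 9.41 CPM in the others. Nfix was at 14.0 CPM in knockout replicate 4, against 18.7 to 19.5 CPM in the other knockout libraries.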

How the results depend on the processing

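The count of members called higher was 2 and lower 0. With the replicate block these counts were 4 and 3, and with the added term for replicates 1 and 2 against 3 and 4 they were 3 and 2. DESeq2 gave 3 and 0, replicates 1 and 2 alone 3 and 1, and replicates 3 and 4 alone 2 and 1. Over all genes, replicates 1 and 2 alone gave 178 higher and 202 lower of 14642. Replicates 3 and 4 alone gave 86 higher and 119 lower of 14538. Leaving out 1 library gave 1 to 2 members higher and 0 to 1 lower, against 50 to 66 and 92 to 121 over all genes. Other scalings and no filter on low counts left both counts at 2 and 0. Of 32 refits of Lhx9 and Ebf3, 27 kept the call and 5 lost it, all of Ebf3. Of 528 refits of the members not called, 14 gained a call. No called change turned round. The sign of the log2 change differed from that of the first fit in 50 refits of 15 members, each of which had a change of at most 0.18 in size. Over all genes the block raised the calls to 322 higher and 313 lower, against 85 and 130, and DESeq2 to 230 and 241. Leaving out 1 library gave 50 to 66 higher calls, with 50 without knockout replicate 1 or WT replicate 1, 54 to 56 without knockout replicate 4, WT replicate 2 or WT replicate 3. In simulated counts the fit without a block recovered 23.9% of genes changed 1.5-fold, so it missed most changes of that size. Smaller changes and the other fits were not simulated. The smallest library counts were 4 reads for Neurog1 and 14 for Dmrt3. The cause of the difference between fits was not tested.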
